A study of Mus musculus with 16 samples.

Results

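The genes of the innate immune sensor and effector families of the mouse were followed through the H3K9me3 ChIP-seq peaks of small intestinal crypts, with and without the chromatin remodeller Smarcad1. A peak belonged to the set where the gene assigned to it in the deposited table had a symbol beginning with Ifi, Gbp, Oas, Slfn, Nlrp, Nlrc, Naip, Irf or Apobec, or was Zbp1 or Wdfy1; Toll-like receptors were left out. Of 212313 H3K9me3 peaks, 176 belonged to the set, and they were assigned to 38 genes. Of these peaks, 149 overlapped their gene, 12 lay upstream and 15 downstream of it by its strand, within 5 kb.

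Both genotypes were C57BL/6 mice, and the study's methods give all animals as males; their ages are not given in the sources used here. The knockout (KO) carried loxP sites around Smarcad1 exons that code for ATP binding, in a line (CE6) that goes back to 1 targeted clone of embryonic stem cells, and a Vil-Cre transgene, in which the Villin promoter drives Cre in the intestinal epithelium, so that other cells of a crypt isolate would keep Smarcad1. The wild type (WT) samples are labelled only as such, and whether they carried loxP sites or Cre is not given in the labels. Whole crypt suspensions were fixed and precipitated with an H3K9me3 antibody (ab8898) or an H3K9me2 antibody (ab1220), with 3 libraries per genotype and mark, and 1 input library without antibody per genotype and mark. The study's text calls the 3 libraries biological replicates, and the labels do not say whether they came from separate animals.

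H3K9me3 is a histone mark of compacted, silent chromatin that is laid over repeats and over many clusters of tandem gene copies. Among the families followed here, the Ifi200, Gbp, Oas, Slfn and Naip genes and many Nlrp genes sit in clusters of tandem copies, while the Irf and Nlrc genes, Zbp1 and Wdfy1 are scattered or single. Ifi200 proteins bind DNA, Naip proteins bind bacterial flagellin or parts of secretion systems and then assemble on Nlrc4, several Nlrp proteins build inflammasomes, Oas proteins sense double-stranded RNA, guanylate-binding (Gbp) proteins attack the vacuoles of intracellular pathogens, Irf proteins are the transcription factors of the interferon response, and Apobec3 is a cytidine deaminase that restricts retroviruses. Mouse Nlrp4, Nlrp5 and most Nlrp9 genes are known mainly from oocytes and early embryos, although Nlrp9b is also known as a sensor of rotavirus RNA in the intestinal epithelium.

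A few stretches of the GRCm38 genome are printed here because the peaks they come from carry the main results: the peak that rose, at Apobec3, and peaks that fell at an antiviral effector (Oasl2), at a bacterial sensor (Naip1) and at an interferon regulator (Irf2). All are given 5′ to 3′ on the plus strand, and capitals mark CpG dinucleotides, the sites of DNA methylation. The Apobec3 stretch is the 250 bases before the inner transcription start of the gene in the RefSeq promoter table (GRCm38.p6) and the others are the central 300 bases of the peak.
Apobec3, upstream of the inner start, chr15:79894773-79895022: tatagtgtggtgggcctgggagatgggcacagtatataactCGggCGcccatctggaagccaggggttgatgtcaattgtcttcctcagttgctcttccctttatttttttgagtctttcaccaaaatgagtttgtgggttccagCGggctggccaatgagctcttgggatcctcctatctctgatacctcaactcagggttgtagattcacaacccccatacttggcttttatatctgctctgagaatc
Oasl2, peak centre, chr5:114905626-114905925: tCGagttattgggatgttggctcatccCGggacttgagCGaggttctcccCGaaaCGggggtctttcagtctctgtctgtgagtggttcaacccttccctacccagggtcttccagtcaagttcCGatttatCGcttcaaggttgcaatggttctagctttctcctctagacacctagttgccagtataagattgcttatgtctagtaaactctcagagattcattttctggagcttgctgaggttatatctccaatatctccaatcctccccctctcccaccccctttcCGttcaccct
Naip1, peak centre, chr13:100418851-100419150: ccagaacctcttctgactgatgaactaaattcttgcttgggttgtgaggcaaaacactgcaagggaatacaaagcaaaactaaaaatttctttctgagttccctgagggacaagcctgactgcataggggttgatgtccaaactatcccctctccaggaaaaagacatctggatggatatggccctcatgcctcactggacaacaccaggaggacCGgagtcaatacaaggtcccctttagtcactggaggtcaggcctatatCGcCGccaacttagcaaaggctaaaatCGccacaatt
Irf2, peak centre, chr8:46774426-46774725: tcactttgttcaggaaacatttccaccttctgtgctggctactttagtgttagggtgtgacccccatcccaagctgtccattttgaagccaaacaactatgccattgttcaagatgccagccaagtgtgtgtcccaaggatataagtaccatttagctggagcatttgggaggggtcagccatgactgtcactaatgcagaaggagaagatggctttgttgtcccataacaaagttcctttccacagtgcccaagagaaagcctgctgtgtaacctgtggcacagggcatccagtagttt
The stretches hold 3 CpG dinucleotides at Apobec3, 8 at Oasl2, 4 at Naip1 and 0 at Irf2. Over whole peaks the median was 6.02 CpG per kb in the 176 peaks and 5.24 in all peaks.

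The name of the set fits only part of what it holds. The Nlrp family took 138 of the 176 peaks, and 131 of these were at Nlrp4, Nlrp5 and Nlrp9 genes. Apart from Nlrp9b, these are the ones known mainly from oocytes. Chromosome 7 alone held 118 peaks of 11 genes. The other 45 peaks were spread over 26 genes: 13 peaks in the Ifi200 family, 11 at Gbp genes, 5 at Naip genes, 7 at Nlrp1 genes and Nlrp12, 2 at Oas genes, and 1 each at Nlrc4, Irf2, Apobec3, Wdfy1, Ifit1bl2, Ifitm7 and Ifi44. The division between Nlrp4, Nlrp5 and Nlrp9 genes and the rest was made after the peaks had been seen.

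**Figure D1:**
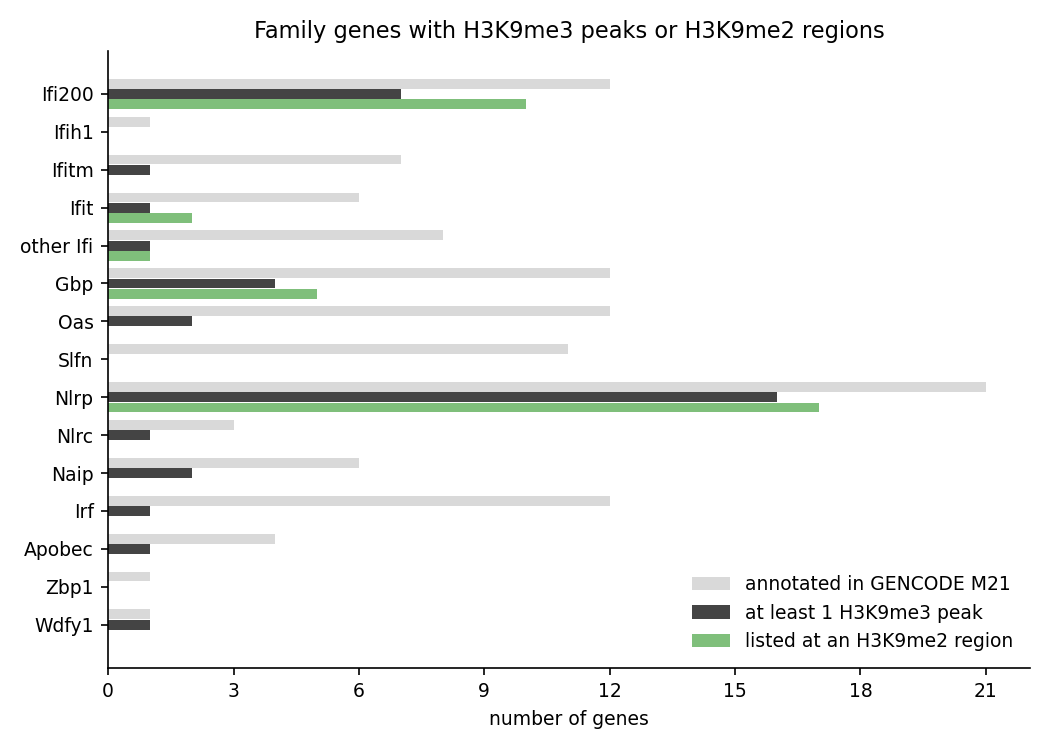
Horizontal bars give, for each family, the number of genes annotated in GENCODE M21 (light), the number with at least 1 H3K9me3 peak assigned (dark) and the number listed at an H3K9me2 region (green). Nlrp genes carry H3K9me3 peaks in 16 of 21 cases, whereas none of 11 Slfn genes does.

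GENCODE M21 annotates 117 genes with symbols of these families, of which 38 (32.5%) had an H3K9me3 peak in crypts and 79 had none, against a share of 23.0% of all annotated genes with a peak. Among protein-coding genes the shares were 29.8% in the families and 30.9% overall. In the Nlrp family 16 of 21 genes had a peak and in the Ifi200 family 7 of 12, while the numbers were 4 of 12 for Gbp genes, 2 of 12 for Oas genes, 2 of 6 for Naip genes and 1 of 12 for Irf genes, a number that includes 3 genes of Irf2-binding proteins. No peak was assigned to any of 11 Slfn genes, to Zbp1, a sensor of Z-form nucleic acids, or to Ifih1, which encodes the RNA sensor Mda5. For Slfn4, a schlafen gene of myeloid cells, the nearest peak lay 57.4 kb away (chr11:83247601-83248500) and did not pass the test (log2 change of -0.41, limma adjusted p = 0.628), and for Zbp1 the nearest lay 10.0 kb away. Since a peak was assigned to 1 gene, 2 of the 79 genes nevertheless lay under a peak given to a neighbour: Gbp9 under a Gbp8 peak and Ifi203 under a Mndal peak.

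The peaks seldom lay over promoters. Within the gene, 98 of the 176 peaks were in introns only, 34 overlapped a coding exon, and 19 covered an annotated transcription start. The RefSeq promoter table (250 bases before to 50 after each start) held 105 promoters of these families, and 7 of them (6.67%) overlapped an H3K9me3 peak, against 5.14% of all 32851 promoters. The 7 belonged to Nlrp4b, Nlrp4c, Nlrp4f, Nlrp5 and Apobec3, and none to an Ifi, Gbp, Oas, Ifit, Irf or Naip gene. The core of the interferon-stimulated response element, GAAANNGAAA on either strand with overlapping matches counted, was found in 33 of the 105 promoters (31.4%) and in 3.44% of all promoters. Of the 33 promoters with the motif, 1, at Nlrp5, overlapped an H3K9me3 peak. At Apobec3 the outer of its 2 promoters held the motif and no peak, and the inner one (chr15:79894773-79895072) held the peak and not the motif.

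The 6 H3K9me3 ChIP libraries held from 7057861 reads in peaks (KO1) to 11832143 (KO2), the H3K9me3 inputs 8838386 (WT) and 8452186 (KO), and the H3K9me2 ChIP libraries 18986927 to 39080740 reads in regions. Of the H3K9me2 libraries, WT1 and KO3 stood apart from the others of their genotype. No peak was assigned to Smarcad1, so the tables do not check its deletion. They hold no expression either. Of 10 epithelial marker genes, Vil1, Lgr5 and Lyz1 carried 5 H3K9me3 peaks. Of these, 1 each at Lgr5 and Lyz1 was called lower in KO and the 1 at Vil1 higher. The shares of all peaks were 2.46% lower and 0.252% higher. The KO carries a transgene with the Villin promoter, and whether reads from it add to the Vil1 peak was not tested. Of 5 leukocyte marker genes, Cd3e and Itgam carried peaks, with none of the 3 past the threshold. In bulk crypts, fewer cells with the mark and less mark per cell cannot be told apart.

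The first comparison asked whether H3K9me3 at these genes differed between KO and WT crypts. In the KO, H3K9me3 fell at 16 of the 176 peaks, in 15 genes of 9 families, and rose at 1, over the inner promoter of Apobec3. The genes with a fall included the sensors Naip1, Nlrc4 and Nlrp9b, the antiviral effectors Oasl2 and Ifitm7, and Ifi213 of the Ifi200 family. They also included the annotated pseudogenes Naip3, which had the steepest fall, Gbp2-ps, Nlrp5-ps and Nlrp1c-ps. Ifi214 was called too, although its KO and WT values overlapped. No grouping of these genes by function was tested. The median log2 fold change, KO minus WT, over the 176 peaks was -0.10, against 0.03 over all peaks, and 117 of the 176 differences (66.5%) were negative, against 45.3% over all peaks. The ChIP libraries had been matched to 1 distribution, so every change is relative to the other peaks. A change shared by all peaks would not show. Among the 144 peaks with a mean log2 value of at least 4 the median was -0.0536. These calls come from limma on the deposited log2 values, with Benjamini-Hochberg adjustment over all peaks and an adjusted p under 0.05. The 16 falls were 9.09% of the set, while 2.46% of all peaks and 3.92% of the peaks assigned to any gene were called lower, and 0.252% and 0.472% were called higher. All 3 KO values lay below all 3 WT values at 41 of the 176 peaks (23.3%) and above them at 9 (5.11%), against 8.21% and 7.3% of all peaks. The calls rest on a variance prior that follows the mean signal: with a single prior for all peaks, no peak of the set was called in either direction, and 87 of all peaks were called lower and 16 higher. With DESeq2 on recovered reads, 9 peaks of the set were called lower and none higher, and with edgeR on the same reads 17 and 1. DESeq2 did not call the Nlrc4, Ifit1bl2, Nlrp1c-ps, Ifi214 and Gbp8 peaks and 1 of the 2 fallen Nlrp9b peaks (adjusted p of 0.0798 to 0.444), where its changes were -1.14 to -0.47, and it gave no adjusted p for Nlrp5-ps.

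**Figure D2:**
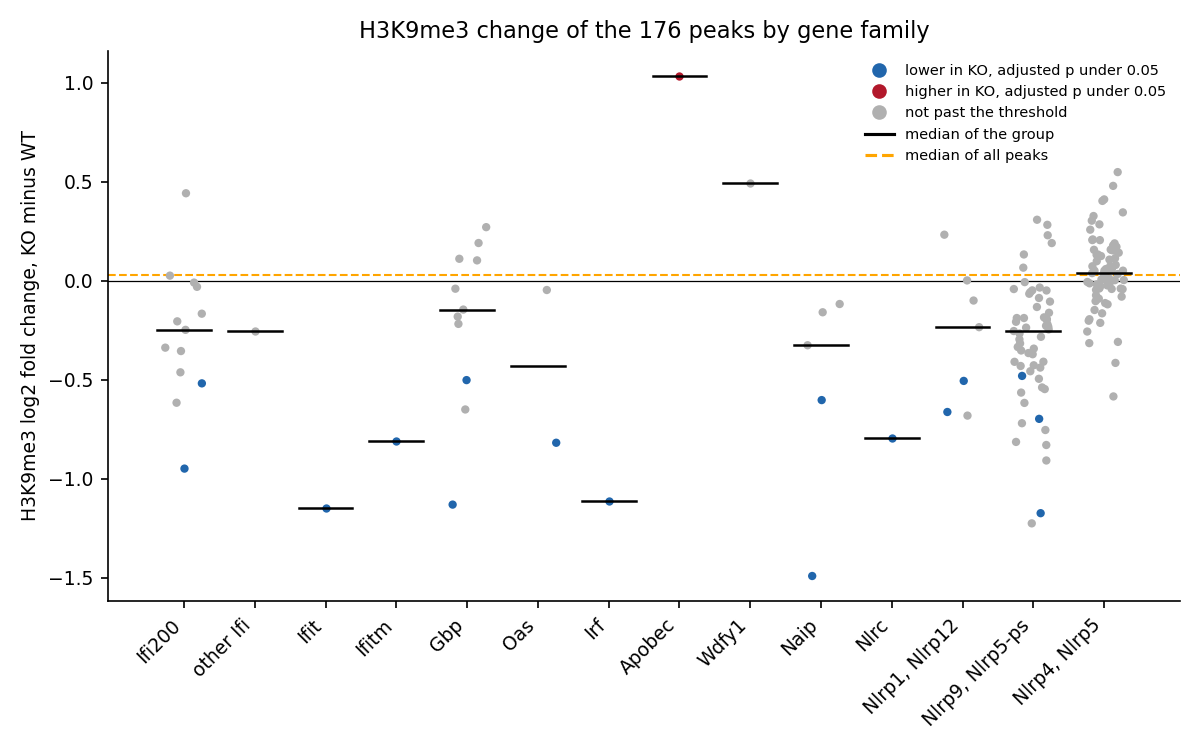
Each point is 1 H3K9me3 peak, placed by gene family (x axis) and by its log2 fold change, KO minus WT, over 3 libraries per genotype (y axis); black bars are group medians and the dashed line the median of all peaks. Points past the threshold (blue, lower; red, higher) are spread over most families outside the Nlrp4 and Nlrp5 group, whose median is 0.04.

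The falls were not spread evenly over the set. At Nlrp4, Nlrp5 and Nlrp9 genes 3 of 131 peaks (2.29%) were called lower, close to the 2.46% of all peaks, and the median log2 fold change was -0.05. Of these 3 peaks, 2 were at Nlrp9b, also known as an intestinal sensor. Among the 45 peaks of the other genes, 13 (28.9%) were called lower and 1 higher, and the median was -0.23. The difference between the 2 groups was not tested, since peaks of 1 gene cluster are not independent of each other.

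Apobec3 carried a single H3K9me3 peak (chr15:79894651-79895700), which covered its inner transcription start and a coding exon. Its deposited log2 values were 4.43, 4.06 and 4.39 in WT1, WT2 and WT3, and 5.26, 5.24 and 5.49 in KO1, KO2 and KO3. Every KO library was above every WT library. The log2 fold change was 1.03 ± 0.23 (moderated SE of limma, n = 3 per genotype, limma adjusted p = 0.00338). It stayed called with any 1 library left out, where the highest adjusted p was 0.0458 (without KO replicate 3). Here and below, the SE of an H3K9me3 change draws on the variance of all peaks of like signal. It is not the spread of the peak's own libraries, which can be wider. Against input, the peak lay below input in WT and slightly above it in KO, with log2 ChIP over input of -0.92 ± 0.19 and 0.31 ± 0.14 (SD, n = 3). The peak held few reads, 16 to 24 in WT, 27 to 45 in KO and 33 and 27 in the WT and KO inputs, and it was not called by DESeq2 (log2 change of 1.02, adjusted p = 0.0728).

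Wdfy1, an endosomal protein linked to Toll-like receptor signalling, also had 1 peak (chr1:79750351-79751250), within an intron. Its log2 values were 4.60, 4.58 and 3.78 in WT and 4.74, 4.54 and 5.18 in KO. Both groups overlapped, with WT3 the lowest library. The log2 fold change of 0.50 ± 0.27 (SE) did not pass the test (limma adjusted p = 0.519), and it was 0.23 without WT replicate 3.

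**Figure D3:**
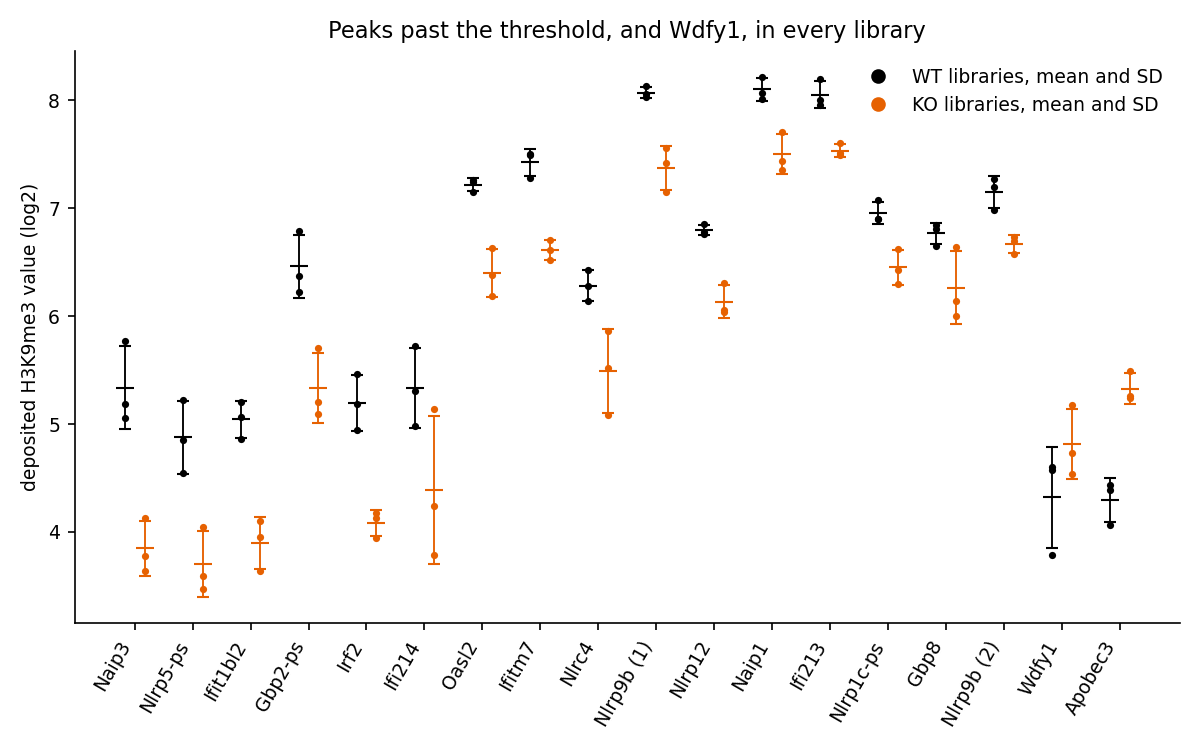
The deposited H3K9me3 log2 value (y axis) of each peak past the threshold, and of Wdfy1 (x axis), with 1 point per library and the mean and SD of 3 WT (black) and 3 KO (orange) libraries; Nlrp9b has 2 peaks. KO points lie below WT points at 15 of the 16 peaks that fell, overlap them at Ifi214 and Wdfy1, and lie above them at Apobec3.

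Among the antibacterial sensors, peaks of both Naip1 and Nlrc4 fell. Naip1 binds the needle protein of bacterial secretion systems, and its main peak (chr13:100415851-100422150, in an intron) had log2 values of 8.22, 8.02 and 8.07 in WT and 7.44, 7.35 and 7.71 in KO, a change of -0.60 ± 0.10 (SE; limma adjusted p = 4.52e-05). Nlrc4, the scaffold that Naip proteins recruit, had a single intronic peak with values of 6.28, 6.43 and 6.14 in WT and 5.08, 5.86 and 5.52 in KO, a change of -0.79 ± 0.17 (limma adjusted p = 0.00236). In neither peak did the groups overlap, although DESeq2 did not call Nlrc4 (log2 change of -0.73, adjusted p = 0.0871). At Naip3, an annotated pseudogene, an intronic peak (chr13:100346401-100347450) went from 5.06, 5.18 and 5.77 in WT to 3.63, 3.78 and 4.13 in KO, the steepest change of the set at -1.49 ± 0.26 (limma adjusted p = 8.74e-05). The other 2 Naip3 peaks and the other Naip1 peak did not pass the test; the widest of them (chr13:100333351-100341000) had the family's highest ChIP over input, 1.11 ± 0.19 in WT and 0.79 ± 0.08 in KO. All 5 Naip peaks had a negative difference. Naip2, Naip5 and Naip6, the other intact genes of the cluster, carried no peak.

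Among the Nlrp genes other than Nlrp4, Nlrp5 and Nlrp9, Nlrp12, which restrains inflammatory signalling, had 1 intronic peak (chr7:3225901-3228300). It measured 6.85, 6.76 and 6.78 in WT and 6.04, 6.31 and 6.06 in KO, a change of -0.66 ± 0.13 (limma adjusted p = 0.00105), with no overlap. Its ChIP over input went from 0.76 ± 0.05 to 0.58 ± 0.14, and the KO input differed there from the WT input by -0.47 on the log2 scale. The Nlrp1 genes, which sense proteases of pathogens, had 6 peaks, and 1 of them fell, at the pseudogene Nlrp1c-ps (chr11:71269051-71272500; -0.51 ± 0.13, limma adjusted p = 0.013). Of all peaks, 2.46% were called lower. The Nlrp1c-ps call was lost in 3 of the 6 fits that left out 1 library. A Nlrp1a peak (chr11:71090551-71092050) had all KO values below all WT values with a difference of -0.68 but did not pass (limma adjusted p = 0.0733).

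At Nlrp9b all 6 peaks had a negative difference and 2 intronic ones fell, against 45.3% negative and 2.46% called lower over all peaks. The first (chr7:19991701-19997250) went from 8.03, 8.06 and 8.13 in WT to 7.15, 7.56 and 7.42 in KO, a change of -0.70 ± 0.10 (limma adjusted p = 4.01e-06), and its ChIP over input from 0.96 ± 0.04 to 0.22 ± 0.21. The second (chr7:20063551-20067600) changed by -0.48 ± 0.12 (limma adjusted p = 0.012), while its ChIP over input, 0.74 ± 0.15 in WT and 0.65 ± 0.09 in KO, moved by less than its spread; the KO input held 54 reads there and the WT input 74.

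Within the Nlrp4, Nlrp5 and Nlrp9 genes the differences split by gene. At Nlrp9a, Nlrp9b and Nlrp9c, 33 of 35 peaks had a negative difference, with a median of -0.27, and at the pseudogene Nlrp5-ps 20 of 24 did, with a median of -0.23. In these 4 genes all KO values lay below all WT values at 20 of 59 peaks and above them at none, against 8.21% and 7.3% of all peaks. At the 7 Nlrp4 genes and Nlrp5, 29 of 72 differences were negative and 43 positive, with a median of 0.04, which is near the 45.3% negative and the median of 0.03 of all peaks. There all KO values lay below WT at 1 peak and above at 8, of which 4 were at Nlrp4e. Only 3 of these 131 peaks passed the test, both Nlrp9b peaks and 1 at Nlrp5-ps (chr7:14591701-14592600; 4.55, 5.22 and 4.86 in WT, 3.47, 3.59 and 4.05 in KO; change of -1.17 ± 0.29, limma adjusted p = 0.00899). Nlrp9c, with 25 peaks, had 23 negative differences and no call. Peaks of 1 cluster share their neighbourhood, and the split was noticed after the values had been seen.

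In the Ifi200 family, 2 of 13 peaks were called lower and none higher, against 2.46% and 0.252% of all peaks, the median was -0.25, and 11 differences were negative. The call at Ifi214 was lost in 4 of the 6 fits that left out 1 library. The broad Ifi213 peak (chr1:173561551-173567400), which overlaps a coding exon, measured 8.00, 7.96 and 8.20 in WT and 7.51, 7.60 and 7.49 in KO, without overlap. Its change was -0.52 ± 0.10 (limma adjusted p = 0.000314), and its WT ChIP over input, 0.97 ± 0.13, was the highest of the family. The Ifi214 peak lay 3694 bases upstream of the gene (chr1:173539651-173541000) and its groups overlapped, at 5.31, 5.72 and 4.98 in WT and 3.79, 4.24 and 5.14 in KO, where KO3 was above WT3. Its change was -0.95 ± 0.26 (limma adjusted p = 0.0261), and the KO input there exceeded the WT input by 0.87 on the log2 scale. The 3 Ifi208 peaks had negative differences between -0.46 and -0.03, none past the threshold.

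The antiviral effectors gave 1 call each at Oasl2, Ifitm7 and Ifit1bl2. The Oasl2 peak (chr5:114904351-114907200) overlapped a coding exon. It was the only one of the 16 to cover an annotated transcription start, an inner one, as the gene begins at chr5:114896936. It measured 7.25, 7.15 and 7.26 in WT and 6.19, 6.39 and 6.63 in KO, a change of -0.82 ± 0.13 (limma adjusted p = 1.14e-05), and its ChIP over input went from 0.99 ± 0.06 to -0.02 ± 0.22. The Oas3 peak (chr5:120757501-120759000) did not pass the test (-0.05 ± 0.22, limma adjusted p = 0.974). Ifitm7 belongs to the family of membrane proteins that block viral entry, and its peak lay 1399 bases downstream of the gene (chr16:13976401-13980300), with values of 7.50, 7.50 and 7.28 in WT and 6.61, 6.71 and 6.52 in KO. Its change of -0.81 ± 0.12 had the lowest adjusted p of the set (limma adjusted p = 3.06e-06), and its ChIP over input went from 0.62 ± 0.13 to 0.31 ± 0.09, with the KO input below the WT input there. The Ifit1bl2 peak (chr19:34635601-34636500, in an intron) measured 5.21, 4.86 and 5.06 in WT and 3.63, 4.10 and 3.96 in KO, a change of -1.15 ± 0.26 (limma adjusted p = 0.00447), and it was not above input in WT (-0.11 ± 0.16). The same peak was the nearest one to Ifit1, 4371 bases from that gene. Ifi44 had 1 peak upstream of the gene, with a difference of -0.25 ± 0.18 (limma adjusted p = 0.685).

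At Gbp genes, 2 of 11 peaks were called lower and none higher, against the same shares of all peaks, with a median of -0.15. The pseudogene Gbp2-ps (chr3:142664401-142666650) had values of 6.79, 6.37 and 6.23 in WT and 5.20, 5.71 and 5.09 in KO, a change of -1.13 ± 0.17 (limma adjusted p = 9.98e-06). The Gbp8 call (chr5:105075001-105078300) was close to the threshold: KO3, at 6.65, lay just below the lowest WT library, and the change was -0.50 ± 0.14 (limma adjusted p = 0.0382), a call lost in 5 of the 6 fits without 1 library. This peak also reached into Gbp9. The highest WT ChIP over input of the family was at a Gbp5 peak (chr3:142516501-142516950), 0.91 ± 0.44, on 5 reads in the WT input and 2 in the KO input. Irf2, a repressor of interferon-responsive genes and the only Irf gene with a peak, had an intronic one (chr8:46774051-46775100) at 5.46, 5.18 and 4.94 in WT and 4.18, 3.95 and 4.13 in KO, a change of -1.11 ± 0.25 (limma adjusted p = 0.0031), without overlap.

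Of the 16 calls, 9 held with any 1 library left out: Ifitm7, the first Nlrp9b peak, Gbp2-ps, Oasl2, Naip1, Naip3, Ifi213, Nlrp12 and Nlrc4. Without WT replicate 1 the number of calls in the set went from 16 to 10, with losses at Irf2 (-0.98), Ifit1bl2 (-1.07), Nlrp1c-ps (-0.45), the second Nlrp9b peak (-0.46), Ifi214 (-0.96) and Gbp8 (-0.46). Nlrp5-ps was lost without WT replicate 2 (-1.001) or WT replicate 3 (-1.18), and Nlrp1c-ps also without KO replicate 1 (-0.43) or KO replicate 3 (-0.49). The second Nlrp9b peak was lost also without WT replicate 3 (-0.42) or KO replicate 1 (-0.43). Ifi214 was lost also without WT replicate 2 (-0.76), KO replicate 1 (-0.65) or KO replicate 2 (-0.87). Gbp8 was lost also without WT replicate 2 (-0.48), WT replicate 3 (-0.56), KO replicate 1 (-0.37) or KO replicate 2 (-0.44). The direction of these peaks did not change in any of these fits.

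The second comparison set the ChIP libraries against the input of the same genotype. Reads in a peak, with 1 read added, were scaled to the library's total over peaks, and the log2 ratio to the input, scaled likewise, is called ChIP over input; with 1 input per genotype it was not tested. In WT the median over the 176 peaks was 0.18 ± 0.01 (SD, n = 3), and 115 of the 176 peaks (65.3%) were above input, against a median of -0.06 ± 0.01 and 41.3% over all peaks. In KO it was -0.03 ± 0.03 and -0.02 ± 0.02 over all peaks. These medians rest on 1 input per genotype, and the KO input was the higher one at 107 of the 176 peaks; against the mean of both inputs the medians of the set were 0.128 in WT and 0.0124 in KO, and with 10 reads added in place of 1 they were 0.0764 and -0.0569. Few peaks reached a 2-fold enrichment in WT, 7 of 176 (3.98%) against 3.21% of all peaks; the highest WT value of the set, 1.65 at a Nlrp4e peak (chr7:23330701-23331000), rested on 2 reads in the WT input. At the 16 peaks that fell, the median went from 0.70 ± 0.10 in WT to -0.07 ± 0.13 in KO. These peaks were chosen by the same ChIP values, so a drop here follows largely from the choice and is no separate evidence. At the Nlrp4, Nlrp5 and Nlrp9 genes it went from 0.10 ± 0.03 to -0.07 ± 0.04, and at the other 45 peaks from 0.46 ± 0.02 to 0.09 ± 0.11. The KO input differed from the WT input by -0.50 to 0.87 on the log2 scale at the 16 peaks and was the higher one at 11 of them.

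**Figure D4:**
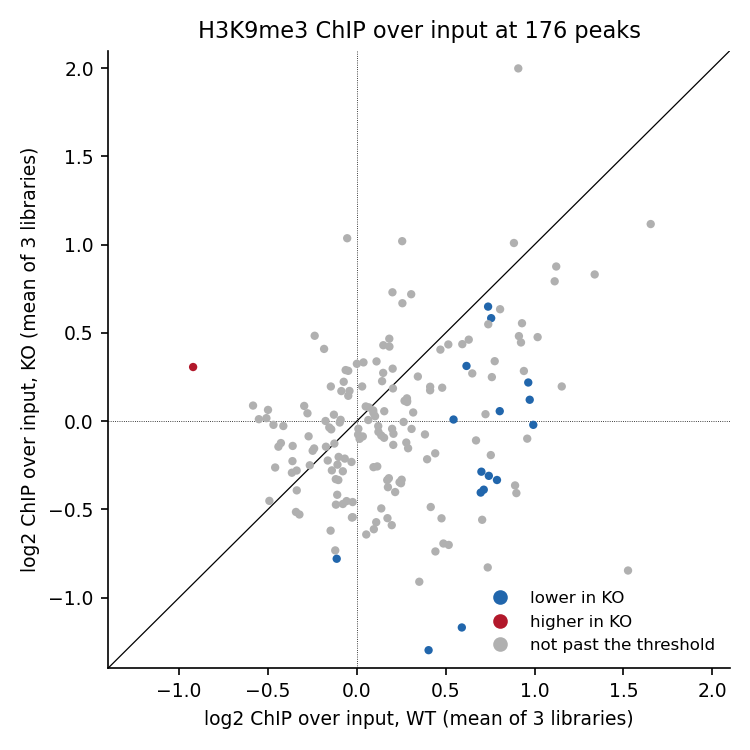
Each point is 1 of the 176 peaks, with the log2 H3K9me3 ChIP over input in WT (x axis) and KO (y axis), each the mean of 3 libraries; the diagonal marks equal values. Peaks that fell in KO (blue) lie to the right of 0 in WT in 15 of 16 cases and Apobec3 (red) lies at -0.92 in WT and 0.31 in KO. The coloured peaks were chosen by the same ChIP values, so their side of the diagonal follows largely from the choice.

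The peaks that fell also differed from the set in width and in overlap with H3K9me2. Their median width was 2625 bases, against 1650 in the set, 1350 over all peaks and 1950 in all peaks called lower in KO. Only 2 (12.5%), at Nlrp5-ps and Gbp8, overlapped an H3K9me2 region, against 63.6% of the set and 68.2% of all peaks; among all peaks called lower in KO the share was 14.7%. Of the 131 peaks at Nlrp4, Nlrp5 and Nlrp9 genes 74.8% overlapped an H3K9me2 region, and of the other 45 peaks 31.1%. Repeat-masked bases made up a median of 40.0% of the first group and 62.9% of the second, against 35.2% over all peaks. Wider peaks hold more reads, and the part of width and read number in the calls was not tested. Reads with a mapping quality under 20 had been removed by the authors, so reads from near-identical copies (Nlrp9, Naip, Ifi200 and Gbp genes and their pseudogenes) may be missing or placed at only 1 copy, and the values of these genes are uncertain to that extent.

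Of 76 further symbols of genes in nucleic acid sensing and interferon signalling, which list some genes under both an old and a new name, 15 carried 28 H3K9me3 peaks. Of the 28 peaks, 7 were called lower and none higher, against 2.46% of all peaks and 3.92% of those assigned to a gene called lower, and their median log2 fold change was -0.53, against 0.03 over all peaks. Of the 16 peaks at sensors and adaptors 7 were called lower: 3 of 6 peaks at Casp8, the cell death protease, 2 of 3 at Ddx60, an RNA helicase linked to antiviral sensing, 1 of 2 at Mndal, an Ifi200 relative named otherwise, and 1 of 2 at Ticam2, a Toll-like receptor adaptor. The largest of these changes was -1.15 ± 0.24 at a Casp8 peak (chr1:58828651-58830150; limma adjusted p = 0.00149), and the Mndal peak (chr1:173868601-173870850) changed by -1.002 ± 0.18 (limma adjusted p = 0.000117). The count of 7 fell to 0 without the variance trend, and to 4 with DESeq2, at an adjusted p under 0.01, and without WT replicate 2, WT replicate 3 or KO replicate 1. Interferon-induced effectors such as Mx1, Mx2, Trim30a and Trim30d had 10 peaks and no call, although all KO values lay below all WT values at 5 of them and above at 1, in Trim30d, against 8.21% and 7.3% of all peaks; the difference between the groups of genes was not tested. The genes for cGAS, Sting, Mavs and RIG-I had no peak.

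The last comparison looked the families up in H3K9me2. This mark covers broad domains of silent chromatin, and 61 of 47065 H3K9me2 regions listed 35 of the genes. Of these genes, 25 also had an H3K9me3 peak, while Ifi204, Ifi206, Ifi207, Gbp3, Gbp4, Gbp11, Nlrp2, Nlrp10, Nlrp14 and Ifit1bl1 were listed for H3K9me2 alone. In addition, Gbp6, Gbp9, Gbp10 and Ifi203 overlapped an H3K9me2 region that did not list them. Apobec3, Slfn4 and Wdfy1 were listed in no region, and their nearest regions lay 343, 56.8 and 36.6 kb away. None of the Naip, Nlrc, Oas, Irf, Ifitm or Slfn genes was listed.

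By edgeR's quasi-likelihood test, none of the 61 regions was lower or higher in KO (lowest adjusted p = 0.9999), while 1 of all regions (0.00212%) was lower and 0 (0%) were higher. At an unadjusted p under 0.05 there were 6 regions (9.84%), against 3.12% of all regions, and with DESeq2 there were 0 calls and 2 regions at an unadjusted p under 0.05. The median log2 fold change of the 61 regions was -0.006, against -0.002 over all regions. Of the 6 regions, the 3 with negative differences were at Ifi206 (-0.29 ± 0.11), Ifi213 (-0.39 ± 0.18) and Ifi208 (-0.32 ± 0.15), and the 3 with positive ones at Nlrp4e (0.24 ± 0.11) and Nlrp9c (0.21 ± 0.10 and 0.33 ± 0.13; SE). At the Ifi213 region (chr1:173570101-173571750) the H3K9me2 counts were 87, 76 and 60 in WT and 101, 37 and 98 in KO, in libraries of unequal depth. Leaving out WT1 or KO3, the libraries that stood apart, gave no call in the 61 regions either.

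**Figure D5:**
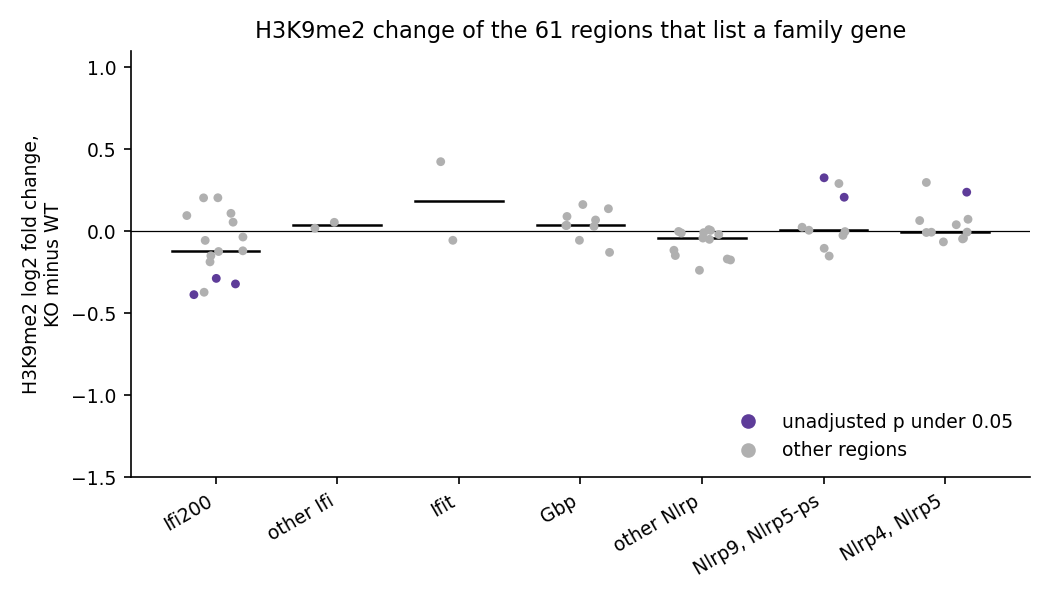
Each point is 1 H3K9me2 region that lists a gene of the families, by its log2 fold change, KO minus WT (y axis), and the first family it lists (x axis); black bars are medians and purple points have an unadjusted p under 0.05. The 61 regions lie between -0.39 and 0.42 and none passed the adjusted test.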

How the data were processed

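H3K9me3 and H3K9me2 ChIP-seq of whole small intestinal crypts was analysed (3 WT and 3 KO libraries and 1 input per genotype for each mark). The authors trimmed reads with Trim Galore 0.4.4, mapped them to GRCm38 with Bowtie2 2.3.2, kept reads with a mapping quality of at least 20, removed duplicates, and called MACS peaks in SeqMonk with the ChIP libraries pooled and both inputs as control. For H3K9me3 the authors deposited 1 log2 value per peak and library, after matching the distributions of the ChIP libraries, and for each input the log2 of its read count, without matching. For H3K9me2 the authors deposited the mean signal per peak over merged regions, which was multiplied by the number of peaks to give region counts. Each peak or region was assigned by the authors to the overlapping or nearest gene within 5 kb. Of the deposited columns, 8 of per-sample standard deviations were not used, and neither were the tables of the authors' own edgeR comparisons, which hold p-values and the counts of peaks chosen by them.

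KO and WT were compared over all 212313 peaks with limma 3.58.1 (lmFit, eBayes with trend; R 4.3.3), without a filter on low values, and over all 47065 H3K9me2 regions with the quasi-likelihood test of edgeR 4.0.16 (TMM). P-values were two-sided and Benjamini-Hochberg adjusted over the whole table, with a threshold of 0.05. The SEs come from the same fits, which moderate the variance of each peak or region toward a trend. ChIP read counts for the ratios to input and for edgeR and DESeq2 1.42.0 were recovered from the ranks of the deposited log2 values, and the deposited value came back for 99.96% to 99.97% of peaks in each library, within 0.002. A recovered count above the range in which ranks can be read (at most 4 of the 176 peaks in any library) was extrapolated. Scripts were tested on simulated data. Positions, promoters and repeat-masked bases came from GENCODE M21 and the RefSeq GRCm38.p6 genome and promoter table; all peaks had a sequence there. The side of the 27 peaks outside their gene was read from the gene's strand, since the deposited orientation named the opposite side for all of them. Alternatives were recovered counts with edgeR or DESeq2, a minimum mean log2 value of 4, no trend, a threshold of 0.01, the replicate number as a block, each library left out, overlapping peaks only, and other offsets and inputs for ChIP over input.

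Peaks named are those of Apobec3, Slfn4 and Wdfy1, those past the threshold, and in each family the one of lowest p (where none passed) and of highest WT ChIP over input, with H3K9me2 regions past the threshold; the Nlrp1a, Ifi208, Oas3, Naip3 and H3K9me2 values beyond these were chosen after they had been seen. The members and gene lists were chosen with earlier results of these data known. The sequence at 1 named peak is not reported here.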

Additional observations from a re-analysis of the deposited data

How the results depend on the processing

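Of the counts and medians recomputed under the alternatives, 82 values stayed within 1.5 times the main count or within 1 SD, and 22 moved. Without the variance trend, the peaks lower in KO went from 16 to 0, those higher from 1 to 0 and those of the 76 further symbols from 7 to 0. With DESeq2 on recovered reads they were 9, 0 and 4, and at an adjusted p under 0.01 the last was 4. Leaving out each library gave 10 to 15 peaks lower in KO, 4 to 6 at the further symbols, and median H3K9me2 changes of -0.0217 to 0.0251 (main -0.006). With a mean log2 value of at least 4, which kept 144 of the 176 peaks, their median change was -0.0536. WT ChIP over input had a median of 0.0764 with 10 reads added, 0.129 at peaks with at least 10 input reads and 0.128 against the mean of both inputs, and in KO it was -0.0759 and 0.0124 in the last 2 cases. The cause of these moves was not tested. Among the named peaks, 184 recomputed values kept their call or its absence, 47 lost the call and none changed direction.

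The replicate numbers did not pair the libraries: same-numbered WT and KO libraries correlated at -0.015, 0.009 and -0.014 for H3K9me3 and at 0.18, 0.011 and 0.086 for H3K9me2. With the replicate block, 16 peaks were lower and 1 higher in KO, and for H3K9me2 none of the 61 regions was called, although 15 of all regions were lower and 2 higher (main 1 and 0).

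The Apobec3 peak rested on 16 to 45 ChIP reads per library, which limits the precision of its values.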
